A study of Mus musculus with 18 samples.

Results

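The 8 genes described here encode the machinery that adds and removes phosphate on the translation initiation factor eIF2: the 2 regulatory subunits of the eIF2 phosphatase (Ppp1r15a and Ppp1r15b), the 4 eIF2 kinases (Eif2ak1 to Eif2ak4), and the alpha and beta subunits of eIF2 itself (Eif2s1 and Eif2s2). They were chosen by name, 8 of 21631 protein-coding genes on the chromosomes that the peak lists cover, and each was followed in a window of its gene body and 20 kb on either side. Binding of the transcription factor ATF4 was mapped by chromatin immunoprecipitation and sequencing in primary immature neurons, cultured from mouse embryos of embryonic day 14 in serum-containing medium and used at 2 days in vitro. The compared groups were 4 peak lists of neurons given 10 mM 2-deoxyglucose (2-DG), a glucose analogue that blocks glycolysis and perturbs protein glycosylation, for 6 h, and 4 lists of untreated control neurons. The series design names one ATF4 antibody for both groups, whereas the sample labels name it for the 2-DG samples and read none for the controls. An ATF4 immunoprecipitation of untreated neurons and one without that antibody therefore cannot be told apart. The design gives 3 independent replicates, and no label ties the 4 lists of a group to separate cultures, so the p-values measure the spread between lists, which may be technical.

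Phosphorylation of the alpha subunit of eIF2 slows protein synthesis in general while favouring translation of the Atf4 mRNA, a program known as the integrated stress response. In mammals 4 kinases feed into it: HRI (Eif2ak1) responds to haem shortage and mitochondrial stress, PKR (Eif2ak2) to double-stranded RNA, PERK (Eif2ak3) to unfolded protein in the endoplasmic reticulum, and GCN2 (Eif2ak4) to uncharged transfer RNA. The phosphate is removed by protein phosphatase 1 bound to GADD34 (Ppp1r15a), which is induced by stress and closes a negative feedback loop downstream of ATF4, or to CReP (Ppp1r15b), which is made without stress.

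The clearest peaks among the 8 genes lay at the gene ends of Ppp1r15b and Eif2s2, the genes of CReP and of the eIF2 beta subunit. Each had a peak within 2 kb of a gene end (an end peak) in 4 of 4 lists after 2-DG and 1 of 4 from controls. Ppp1r15a, the feedback gene, had a weaker peak with its summit within 35 bp of the start in 3 of 4 lists after 2-DG, and no such peak in the 4 control lists. None of the 4 kinase genes had an end peak in a single list, nor did Eif2s1, which encodes the subunit that the kinases phosphorylate. That is the state of most genes, since 11.1% of all had an end peak in at least 1 list. A missing peak means that none was called: read depth is unknown, since the lists give no counts.

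Promoter sequences from RefSeq (GRCm38.p6, the assembly that mm10 names), running from 250 bases before to 50 bases after each start, were held for 7 of the 8 genes, Ppp1r15b being the other. The 3 shown here were picked because they contrast a weak peak, a strong peak and no peak at the start: Ppp1r15a (chr7:45526219-45526518, minus strand), Eif2s2 (chr2:154892857-154893156, minus strand) and the PERK gene Eif2ak3 (chr6:70844265-70844564, plus strand). Capitals mark a match to the cyclic AMP response element TGACGTCA, a palindrome, or to TGATGNAA, the core of the C/EBP-ATF response element, searched on both strands.
Ppp1r15a: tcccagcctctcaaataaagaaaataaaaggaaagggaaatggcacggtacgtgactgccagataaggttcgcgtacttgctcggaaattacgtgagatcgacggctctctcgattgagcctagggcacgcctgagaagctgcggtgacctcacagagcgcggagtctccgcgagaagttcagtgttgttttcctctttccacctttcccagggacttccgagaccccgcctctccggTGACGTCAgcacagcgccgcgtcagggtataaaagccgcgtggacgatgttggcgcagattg
Eif2s2: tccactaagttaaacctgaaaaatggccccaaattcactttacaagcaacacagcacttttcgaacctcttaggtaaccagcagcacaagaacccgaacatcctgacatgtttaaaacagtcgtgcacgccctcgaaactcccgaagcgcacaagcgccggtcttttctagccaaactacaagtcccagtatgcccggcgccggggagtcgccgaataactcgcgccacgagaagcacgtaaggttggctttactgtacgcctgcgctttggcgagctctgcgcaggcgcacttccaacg
Eif2ak3: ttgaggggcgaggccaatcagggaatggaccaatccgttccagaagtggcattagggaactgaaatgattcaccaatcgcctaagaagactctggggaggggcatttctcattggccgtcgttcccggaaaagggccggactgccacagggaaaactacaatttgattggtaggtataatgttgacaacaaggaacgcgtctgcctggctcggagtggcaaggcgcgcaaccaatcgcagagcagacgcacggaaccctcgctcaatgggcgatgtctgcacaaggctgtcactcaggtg

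The Ppp1r15a promoter held TGACGTCA once, beginning 12 bases before the start, at chr7:45526273-45526280. The other promoter windows of the 8 genes, including both windows of Eif2ak4, held neither motif. Of all 32851 RefSeq promoter windows of 300 bases, 1.79% held TGACGTCA and 3.97% held TGATGNAA. A match describes letters in a window and not a bound site, and the windows end near the start: the Eif2s2 summits described next lay 51 to 85 bp inside the gene, past the last printed base.

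Ppp1r15b lies on chromosome 1 at 133131166 to 133139800 (mm10), with no other protein-coding gene within its window. The authors' fold enrichment over local background is column 7 of the lists, a value of single peaks. At the Ppp1r15b end peak it was 112, 86.1, 29.3 and 42.8 in 2-DG replicates 1 to 4, and 17.8 in control replicate 1. Control replicates 2 to 4 had no peak there. Within their own lists these peaks ranked 11 of 15240, 14 of 7369, 55 of 6371 and 33 of 5856 after 2-DG, and 61 of 3461 in control replicate 1. The peak was thus in the top 0.863% of each 2-DG list by fold, and in the top 1.76% of the one control list that held it. Folds and ranks describe a peak within its own list, and they cannot be used to show a change between lists of different length. The 4 2-DG summits fell between 133131104 and 133131108, 58 to 62 bp outside the lower-coordinate end of the gene, and the control summit fell at 133131096. Intervals were 593 to 931 bp wide after 2-DG and 1091 bp in control replicate 1. In number of lists, 4 of 4 after 2-DG against 1 of 4 in controls had p = 0.143 (exact permutation test, two-sided).

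Eif2s2, whose product is the beta subunit of the eIF2 heterotrimer, lies on chromosome 2 at 154871410 to 154892906. Its end peak was called in each 2-DG list and, among controls, in replicate 1 alone. It had a fold of 33.4, 37.3, 15.7 and 20.6 in 2-DG replicates 1 to 4, and 4.73 in control replicate 1. By fold it ranked 158 of 15240, 91 of 7369, 159 of 6371 and 136 of 5856 in the 2-DG lists, and 1014 of 3461 in control replicate 1. All 4 2-DG peaks therefore stood in the top 2.50% of their lists, and the control peak in the top 29.3% of its own, shorter list. As for Ppp1r15b, these values differ but cannot be used to show a change between lists of different length. Summits after 2-DG lay at 154892821 to 154892855, and the control summit lay farther into the gene, 217 bp from the start. The numbers of lists were those of Ppp1r15b, with the same exact permutation p of 0.143.

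The lone control list with both peaks was control replicate 1. Over all genes, 44 had an end peak in 4 of 4 lists after 2-DG and 1 of 4 from controls. For 39 of them (88.6%) that control list was replicate 1. With window peaks 303 genes had this pattern, and the control list was replicate 1 for 95 (31.4%) and replicate 3 for 107 (35.3%). Chac1, a known target of ATF4, likewise had an end peak in that list, with a fold of 13.8 (rank 84). It also had a lower one 1499 bp from its start in control replicate 3, with a fold of 4.68. Trib3, another known target, had an end peak in each 2-DG list and in no control list. Control replicate 1 was the shortest list, with 3461 peaks. Without it, Ppp1r15b and Eif2s2 had a peak in 4 of 4 lists after 2-DG and 0 of 3 from controls.

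Ppp1r15a lies on chromosome 7 at 45522917 to 45526268 and is read on the minus strand. Its start is 61 bp from the start of Plekha4, which is read the other way and encodes a protein with a pleckstrin homology domain. A peak at this shared stretch had a fold of 6.19, 6.05 and 4.31 in 2-DG replicates 1, 2 and 4. It ranked 2929 of 15240, 1894 of 7369 and 3533 of 5856, which is the top 19.2%, 25.7% and 60.3% of those lists. The intervals of replicates 1 and 2 covered the Ppp1r15a start, and that of replicate 4 began 1 bp outside the gene. Each of the 3 intervals held the TGACGTCA match, with summits 39.5, 27.5 and 26.5 bp from its middle. The summits of replicates 1 and 2 were nearest to the Ppp1r15a start, at 31 and 19 bp inside the gene, and that of replicate 4 was nearest to the Plekha4 start, at 27 bp. The lists cannot assign the peak to one of the 2 genes.

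2-DG replicate 3 had no peak at the Ppp1r15a start. Its lone peak in the window lay 10080 bp outside the gene, inside Plekha4, with a fold of 3.91, which is the lowest fold in that list. 2-DG replicate 1 held further window peaks near the other end of Ppp1r15a, where the last stretch of Tulp2 overlaps it (fold 6.50), and 12262 bp outside it (fold 4.95). No control list had a peak in the window. By the window rule Ppp1r15a thus had a peak in 4 of 4 lists after 2-DG and 0 of 4 from controls (two-sided exact permutation p = 0.0286, adjusted p = 1 over 21631 genes by the Benjamini-Hochberg method). By end peaks it had 3 of 4 and 0 of 4 (exact permutation p = 0.143). The smallest p that 4 lists against 4 allow is 0.0286, which 334 genes reached, and no gene had an adjusted p under 0.05.

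**Figure D1:**
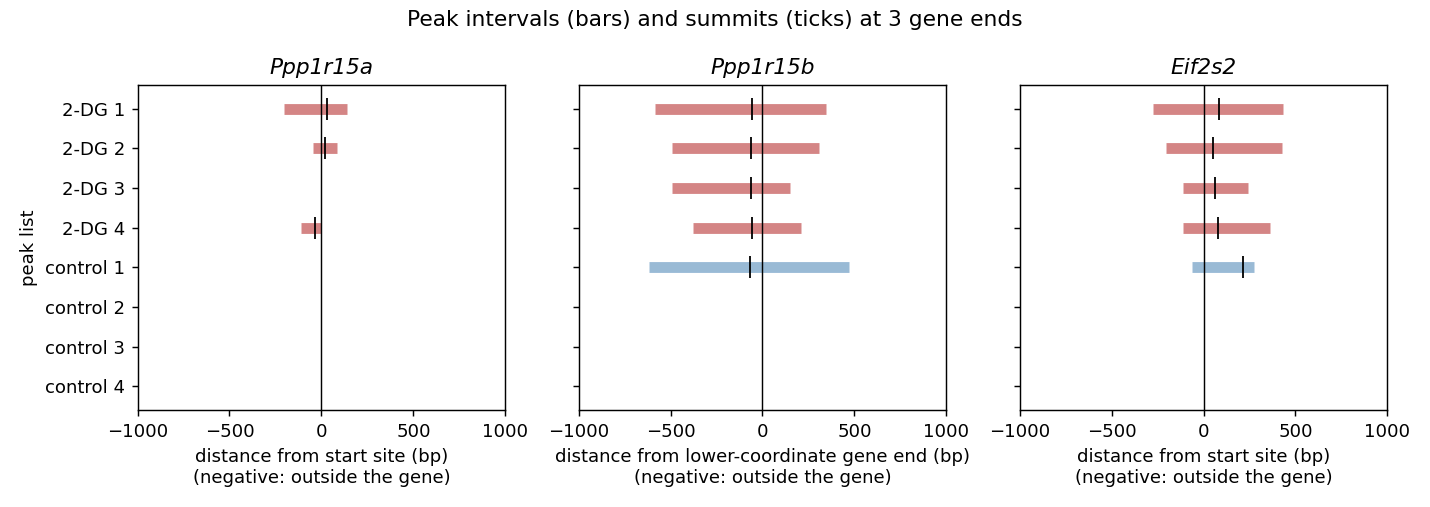
Peak intervals (bars) and summits (ticks) by distance in bp from the gene start (Ppp1r15a, Eif2s2) or the lower-coordinate gene end (Ppp1r15b), with 2-DG lists in red above control lists in blue. At Ppp1r15b the 2-DG summits stack at 58 to 62 bp outside the gene, at Eif2s2 they lie 51 to 85 bp inside it, and Ppp1r15a has shorter intervals in 3 2-DG lists and none in the control lists.

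The kinase genes had scattered and low peaks, in both groups of lists. Over 4 genes and 4 lists, 2 of 16 combinations of gene and list had a window peak after 2-DG, against 3 of 16 in controls, and 0 of 16 had an end peak in either group. A gene taken over all 21631 had a window peak in a mean of 21.2% of lists after 2-DG and 14.0% from controls. For end peaks these means were 3.58% after 2-DG and 1.69% in controls, so nothing is read from the kinase counts. For the 2 phosphatase genes the window counts were 8 of 8 combinations after 2-DG and 1 of 8 in controls, and the end counts were 7 of 8 and 1 of 8. Genes and lists are not independent, so these counts carry no test.

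Eif2ak3, the PERK gene (chromosome 6, 70844484 to 70905241), had no window peak in any 2-DG list and 1 in control replicate 4. That peak lay 2426 bp outside the far end of the gene with a fold of 3.54, the lowest in its list. Eif2ak4, the GCN2 gene (chromosome 2, 118388583 to 118475234), had one in 1 list of 4 after 2-DG and in 2 control lists of 4. A peak 53010 bp past the second of its 2 RefSeq starts in 2-DG replicate 1 had a fold of 4.33, and one 53040 bp past it in control replicate 4 had a fold of 3.54. The control replicate 3 peak of Eif2ak4 had a fold of 6.55, in the top 8.35% of its list, and lay 18435 bp outside the gene, nearer to an end of Srp14. Eif2ak2, the PKR gene (chromosome 17, 78850504 to 78882572), had 1 peak, in 2-DG replicate 4, with a fold of 3.98 and 7335 bp outside the start, nearer to Gm26637. Eif2ak1, the HRI gene (chromosome 5, 143817792 to 143902717), had none in any list. All exact permutation p-values for the kinases were 1.

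Eif2s1 (chromosome 12, 78862072 to 78887010), the gene of the phosphorylated alpha subunit, also had no window peak in any list. The 2 eIF2 subunit genes thus differed, with 4 of 4 2-DG lists at Eif2s2 and 0 of 4 at Eif2s1. Having no window peak in any list was the commonest pattern, found for 9580 of 21631 genes. Nothing particular is therefore read from the lack of peaks at Eif2s1.

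**Figure D2:**
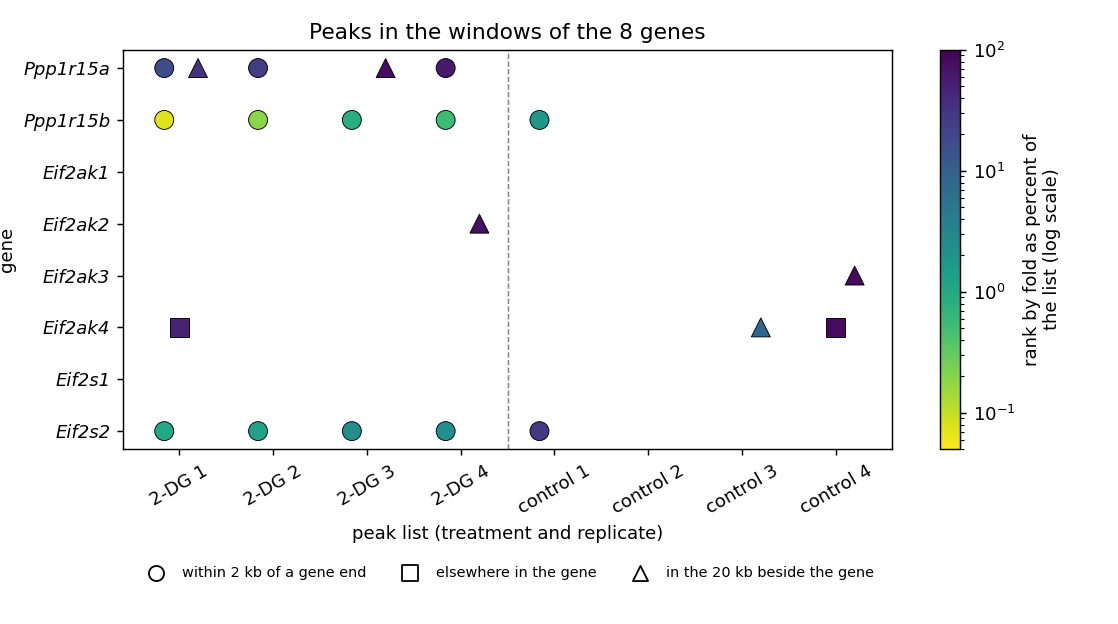
Each symbol is the highest peak by fold at a given place in the window of 1 of the 8 genes (rows) in 1 of 8 peak lists (columns, 2-DG left of control). Its shape gives the place and its colour the rank by fold as a percent of its list on a log scale. The Ppp1r15a circle in 2-DG replicate 1 is the peak nearest to Tulp2, and the lower peak at the start is not drawn. Gene-end peaks (circles) occur at Ppp1r15a, Ppp1r15b and Eif2s2 and lie in the 2-DG lists apart from those of control replicate 1, while kinase peaks are few and mostly low.

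Ppp1r15a and the kinases were next set side by side. A window peak was called at Ppp1r15a in 100% of 2-DG lists and at a kinase in a mean of 12.5%, a difference of 87.5 percentage points. In the control lists Ppp1r15a had none. The Ppp1r15a peak of 2-DG replicate 3 lay 10080 bp outside the gene. Counting only peaks nearest to a gene's own ends, the difference was 43.75 points. The mean over all genes was 21.2% of 2-DG lists, so the kinase value was below that of an average gene and the difference says nothing particular about the kinases. With end peaks in place of window peaks the difference was 75 points, since Ppp1r15a had 3 of 4 and the kinases 0 of 16, against 3.58% over all genes. The folds in 2-DG lists were 3.91 to 6.50 in the Ppp1r15a window and 3.98 to 4.33 in the kinase windows. The 6.50 belongs to the peak nearest to an end of Tulp2, and the peaks at the Ppp1r15a start had 4.31 to 6.19. Among control lists, the Eif2ak4 peak of replicate 3 had a fold of 6.55, in the top 8.35% of its list. For scale, the end peak of Chac1, an established ATF4 target whose product breaks down glutathione, had folds of 142, 128, 69.0 and 66.7 in 2-DG replicates 1 to 4 and ranked 7, 8, 16 and 19. That of Trib3, a pseudokinase gene and another such target, had folds of 58.8, 37.7, 21.5 and 24.9 and ranked 56, 87, 95 and 100. In each of the 4 2-DG lists the Ppp1r15b peak thus ranked below that of Chac1 and above that of Trib3, and the Eif2s2 peak ranked below both.

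**Figure D3:**
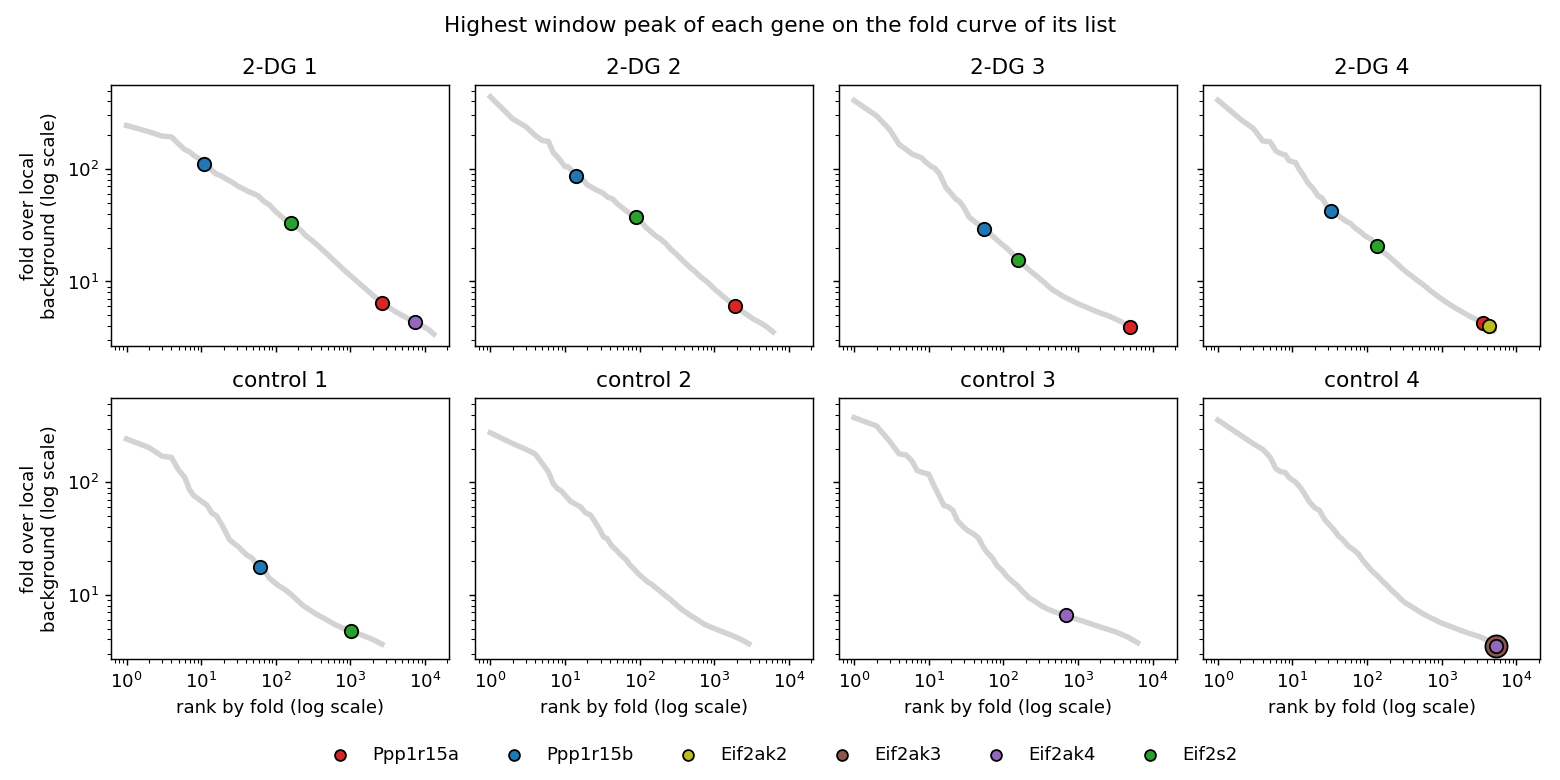
Fold over local background against rank for all peaks of each list (grey curve, both axes log scale), with 2-DG lists in the upper row and control lists in the lower, and the highest window peak of each gene marked. Ppp1r15b and Eif2s2 sit on the steep part of the 2-DG curves, and Ppp1r15a and the kinase genes sit lower on those curves. In control replicate 4 Eif2ak3 and Eif2ak4 have the same fold and their marks coincide. The Ppp1r15a mark in 2-DG replicate 1 is the peak nearest to Tulp2.

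Against all 21631 protein-coding genes, 3 of the 8 (Ppp1r15a, Ppp1r15b and Eif2s2) had a window peak in at least 3 of 4 lists after 2-DG and at most 1 of 4 from controls, where 6.33% of all genes did. Without control replicate 2, 3 or 4 the count was 1, since 1 of 3 control lists exceeds the limit, and the share of all genes was 3.60%, 4.39% and 4.27% without them in that order. Under the stricter pattern of 4 of 4 and 0 of 4 lists there was 1, Ppp1r15a, and 1.53% of all genes. Ppp1r15a met it only through the peak of 2-DG replicate 3 that lay 10080 bp outside the gene. With end peaks, 0 of the 8 had the stricter pattern, as did 0.573% of all genes. Any window peak in at least 1 of the 8 lists was found for 6 of the 8, and for 55.7% of all genes. The same 3 genes had end peaks in at least 3 of 4 lists after 2-DG and at most 1 of 4 from controls, as did 1.41% of all genes. They were also the ones with an end peak in at least 1 list, a class that held 11.1% of all genes. The genes were proposed with results of these data known, so no test was made on these counts.

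A longer window has more room for a peak. The windows of Ppp1r15a and Ppp1r15b, 43352 and 48635 bp, were shorter than the median over all genes of 57329 bp, and that of Eif2s2 was 61497 bp. The kinase windows ran from 72069 bp (Eif2ak2) to 126652 bp (Eif2ak4), longer than the median in each case. The nearest peaks beyond the 20 kb limit were one 20929 bp from Ppp1r15a in 2-DG replicate 4 and one 31251 bp from Eif2ak1 in control replicate 2, and the outermost inside it was the Eif2ak4 peak of control replicate 3 described above.

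**Figure D4:**
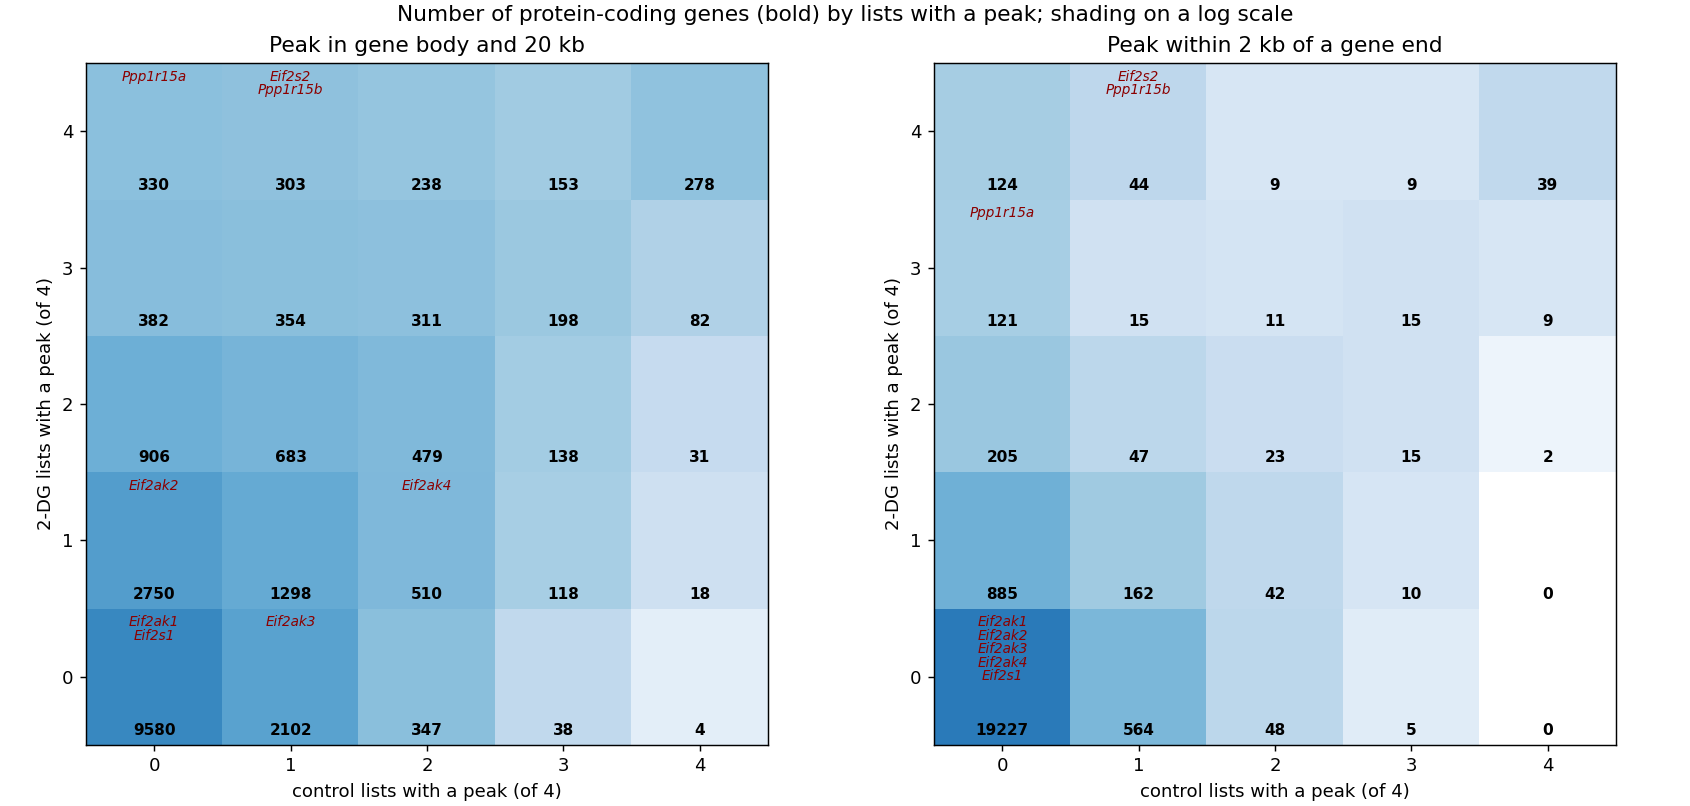
Number of protein-coding genes (bold) by the number of 2-DG lists (vertical axis) and control lists (horizontal axis) with a peak in the gene body and 20 kb (left) or within 2 kb of a gene end (right), with the 8 genes written in their cells and shading on a log scale. At gene ends, 5 of the 8 share the cell with no peak in any list, and Ppp1r15b and Eif2s2 are among the 44 genes with 4 2-DG lists and 1 control list.

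Per list, 4, 3, 3 and 4 of the 8 genes had a window peak in 2-DG replicates 1 to 4, and 2, 0, 1 and 2 in control replicates 1 to 4. The means were 3.5 ± 0.577 after 2-DG and 1.25 ± 0.957 in controls (SD, n = 4 each), and the groups did not overlap. End peaks were found for 3, 3, 2 and 3 genes after 2-DG and for 2, 0, 0 and 0 in controls, where the lowest 2-DG list equalled the highest control list. Over all genes the share with a window peak was 15.2% to 33.1% of genes per list after 2-DG and 8.95% to 20.1% in controls. These ranges overlapped: control replicate 3 (20.1%) exceeded 2-DG replicates 2, 3 and 4 (19.4%, 17.2% and 15.2%). The share with an end peak was higher after 2-DG without overlap, at 2.43% to 5.64% against 1.26% to 2.05%. The lists held 5856 to 15240 peaks after 2-DG and 3461 to 8202 in controls. The part of list length in the counts for the 8 genes was not tested, apart from equal lengths: with the 3461 highest peaks of each list, Ppp1r15b and Eif2s2 kept 4 of 4 lists after 2-DG and 1 of 4 from controls and Ppp1r15a kept 2 of 4 and 0 of 4.

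Other genes of the eIF2 pathway were counted in the same way. Of 22 further genes (eIF2 gamma, the 5 eIF2B exchange factor subunits, other initiation factors, catalytic subunits of protein phosphatase 1, and activators and inhibitors of the kinases), 2 had a window peak in at least 3 of 4 lists after 2-DG and at most 1 of 4 from controls. End peaks of that pattern were found for 0 of the 22. Over all genes the shares were 6.33% for windows and 1.41% for ends, so neither count is a result about the pathway. The pair with window peaks were Eif2b2, an eIF2B subunit gene, and Impact, whose product restrains GCN2, each with 3 of 4 lists after 2-DG and 1 of 4 from controls (exact permutation p = 0.486). The Eif2b2 peaks lay 18913 to 19336 bp outside the gene with folds of 3.56 to 4.65 after 2-DG and 4.60 in control replicate 4. Those of Impact lay at differing places in and beside the gene, with folds of 3.56 to 4.27 after 2-DG and 3.66 in control replicate 2. Eif5, the gene of the GTPase-activating partner of eIF2, had one and the same interval, chromosome 12, 111538655 to 111538800, in 3 of 4 lists after 2-DG and 3 of 4 from controls. Its fold was 4.64, 6.05 and 3.98 in 2-DG replicates 1, 2 and 4, and 5.09, 7.70 and 3.54 in control replicates 1, 2 and 4. Eif2s3x, Eif2b1, Eif2b3, Eif2b4, Nck1, Prkra, Tarbp2, Oma1, Cdc123, Atf4 and the 3 phosphatase catalytic genes Ppp1ca, Ppp1cb and Ppp1cc had no window peak in any of the 8 lists. Dnajc3, whose product P58IPK inhibits PERK, and Gcn1, whose product activates GCN2, each had a window peak in 1 list after 2-DG, while among the controls Dnajc3 had 1 and Gcn1 had 0. Eif2d had 2 lists after 2-DG and 1 control list, and Eif2a, Eif2b5 and Dele1 had 1 control list each.

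Genes with the same pattern over the 8 lists were ranked by how near their place within the 2-DG lists was, taking for each gene the highest peak whose nearest gene end, within 20 kb, is its own. For Ppp1r15a that pattern is 2-DG replicates 1 and 2 alone, shared by 356 other genes. The nearest were Ddi1, Frmd4b, Fkbp4, F830045P16Rik and B3glct, with mean differences of 1.35, 1.61, 1.62, 2.24 and 2.25 percentile points over 2 lists. The same ranking for Ppp1r15b and Eif2s2 was added after their values were seen. Both had the pattern of all 4 2-DG lists and control replicate 1, shared by 41 other genes. Nearest to Ppp1r15b were Lcorl, Atf5 (a stress-response transcription factor), Arl14ep, Herpud1 (a factor of degradation at the endoplasmic reticulum) and Shmt2 (mitochondrial serine hydroxymethyltransferase), within 0.137 to 0.424 percentile points over 4 lists. Nearest to Eif2s2 were Mars1, Tars and Yars, which encode cytosolic aminoacyl-tRNA synthetases, the mitochondrial chaperone gene Hspa9, and the splicing factor gene Bud31, within 0.269 to 0.362 points. These are descriptions of rank over lists that share their samples.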

How the data were processed

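Peak lists existed for 10 immunoprecipitations among 18 samples, and the 8 inputs were not used here. The submitters' processing notes name BWA, Picard, MACS2 and DiffBind and the build mm10, without versions. For every summit the authors deposited a fold over local background (a ratio), the -log10 of a p-value and of a q-value, and a score derived from the q-value. Peak names in the files carry 1 run each, so lists were called per sample. The 8 lists compared ended at a -log10 q of 1.32 to 1.77, and their depth is unknown, so no detection limit can be given.

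Summits that share an interval were merged into 1 peak, placed at the highest of them. Windows were built on RefSeq gene positions (GRCm38.p6), a table that gives gene starts and ends without strand or exons, and strand came from the RefSeq promoter table. Overlap meant at least 1 bp. Presence of a peak was tested per gene by a two-sided exact permutation test over 70 assignments of lists, with Benjamini-Hochberg adjustment over 21631 genes. Fold and rank were described within a list alone. Replicates were numbered in accession order within a group, which pairs no lists. Of the 18 samples, 4 (2 lists and 2 inputs) had titles and descriptions that disagree and were left out. The genes, gene lists and rules were chosen with earlier results of these data known. The naming rule took the 8, pathway genes with a peak in at least 3 of 4 lists of a group, and 5 genes nearest in pattern to Ppp1r15a. It also took genes nearer to a recurrent window peak (Plekha4), and Chac1 and Trib3 for scale. Named beyond the rule were the other pathway genes and those nearest in pattern to Ppp1r15b and Eif2s2. So were Srp14, Gm26637 and Tulp2, each nearer to a window peak in 1 list. Alternatives were other windows, thresholds, list lengths, overlap rules and lists. No cell type markers could be checked, since peaks do not measure expression. Code (Python 3.11.15, pandas 2.3.3) was tested on simulated data.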

Additional observations from a re-analysis of the deposited data

Results flagged for a closer look

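Each count was screened in sets of 4 lists for a value far from the rest. Of 16 sets 3 held one. The nominal rate of about 1 in 20 does not hold for counts of few genes, so no excess is read from this. 2-DG replicate 1 had 15240 peaks, against 7369 in the next longest 2-DG list. 2-DG replicate 3 had 2 of the 8 genes with an end peak, against 3 in each other 2-DG list, the missing one being Ppp1r15a. Control replicate 1 had 2 genes with an end peak, Ppp1r15b and Eif2s2, against 0 in each other control list. Such counts of few genes pass the screen whenever 1 list differs.

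The list titled 2-DG and labelled control in its description entered no group. It had a window peak at 3 of the 8 genes, above the 0 to 2 of the control lists, and these were Ppp1r15a, Ppp1r15b and Eif2s2. Over all genes its share with a window peak was 20.7%, likewise above the 8.95% to 20.1% of the control lists. Its end peak had a fold of 28.5 at Ppp1r15b (rank 59 of 7847) and 12.8 at Eif2s2 (rank 233 of 7847), and its Ppp1r15a window peak lay 12241 bp outside the gene with a fold of 4.17. The list titled control and labelled 2-DG had 1, Eif2ak3, with a fold of 3.56.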

How the results depend on the processing

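Of 8 genes, 3 met the pattern of at least 3 in 4 2-DG lists and at most 1 in 4 control lists. Under 21 alternatives the count was 2 or 3, except that it was 1 when control replicate 2, 3 or 4 was left out, since 1 of 3 control lists then exceeds the limit, and 1 when the lists with conflicting labels entered by their descriptions. Leaving out single lists gave 1 to 3. The difference in genes per list, 2.25 (2-DG minus control), ran from 1.5 to 2.5, and was 1.4 when they entered so. Adjusted p-values of the 8 genes (exact permutation test) were 1 throughout, except for a lowest of 0.692 with those lists added by title. With 4 lists against 4 the smallest p of that test is 0.0286, so low adjusted values were out of practical reach. They therefore do not measure stability.

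Ppp1r15a depended most on the window and the threshold. Its share of 2-DG lists minus the kinase mean, 87.5 percentage points, was 43.75 for the gene body alone or for peaks nearest to its own ends, 68.75 at 5 kb, 62.5 at a -log10 q of at least 2, 50 at a -log10 q of at least 5, at a fold of at least 5 or with 3461 peaks per list, and 65 with conflicting lists added by description. For Ppp1r15b and Eif2s2 the share of 2-DG lists minus that of control lists, 75 points, ran from 66.7 to 100, and was 40 with conflicting lists added by description. Ranking by -log10 q left their mean place at the top 0.422% and 1.77% of the 2-DG lists, and counting each summit, added after seeing the data, gave 0.533% and 2.15%.

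The cause of these shifts was not tested, beyond what smaller windows and fewer peaks entail. The share of all genes with the pattern, 6.33%, was 3.37% for the gene body alone, 4.35% at 5 kb, 9.92% at 50 kb, 1.41% at gene ends, 4.43% by nearest gene, 4.01% at a -log10 q of at least 5, 4.23% at a fold of at least 5, 4.11% at equal list lengths, and 4.04% and 2.01% with conflicting lists added by title and by description. Without single lists it ran from 2.99% to 4.84%. No paired analysis was possible because the labels give a running sample number and no replicate number, and numbers given in accession order pair no lists. Depth is unknown, so a missing peak cannot be read as absence of binding.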
